A study of Arabidopsis thaliana with 18 samples.

Results

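The microRNAs (miRNAs) of Arabidopsis thaliana leaves were compared between plants treated with the fungus Alternaria brassicicola and mock-treated plants, in libraries made from total RNA. These are 6 of the 18 small RNA libraries of the series, 3 per group, chosen by their labels; the others hold untreated plants or RNA bound to ARGONAUTE1 (AGO1), the protein through which most plant miRNAs act. Of the 101 families and 476 distinct sequences in the deposited table, 86 families and 370 sequences were listed in the 6 libraries, and all of them are accounted for here. All plants were the accession Col-0 with no transgene named, grown on soil at 8 hours of light and 22 °C to an age of about 5 to 6 weeks, and rosette leaves were taken. The Alternaria group was sprayed with 1000000 spores per ml of strain MUCL 20297 in 0.01% of the wetting agent Silwet L 77 and harvested on day 3. The labels do not say what the mock spray held or when mock leaves were harvested, so the fungus, the wetting agent and the day cannot be told apart where these differed. The series gives the 3 libraries of a group as biological replicates.

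Plant miRNAs are cut from hairpin transcripts by DICER-LIKE1, which leaves a duplex of 2 strands named 5p and 3p after their hairpin arm. One strand is loaded into an ARGONAUTE protein and guides it to messenger RNAs that pair with it, which are then cut or poorly translated, and the other strand is usually degraded. Alternaria brassicicola is a necrotroph, a fungus that kills leaf cells and feeds on them, and miRNAs of nutrient supply, immune receptors, hormone signalling and development are all known in leaves.

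The sequences below carry the differences described, so they are given first, 5′ to 3′ as deposited (T stands for U), with bases 2 to 8, the seed, in capitals. The first 7 are the main sequences of the families that passed the test, with the length variant of miR163 and the strand of another miR169 gene, and the others are the annotated guide strand of miR169 and both strands of miR168, whose balance did not overlap between groups.
miR827: tTAGATGAccatcaacaaact
miR163, 24 nt: tTGAAGAGgacttggaacttcgat
miR163, 23 nt: tTGAAGAGgacttggaacttcga
miR169d and miR169g, 3p: gCAAGTTGaccttggctctgt
miR169f, 3p: gCAAGTTGaccttggctctgc
miR822: tGCGGGAAgcatttgcacatg
miR5368: gGACAGTCtcaggtagac
miR169a, 5p: cAGCCAAGgatgacttgccga
miR168a and miR168b, 5p: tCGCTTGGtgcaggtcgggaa
miR168a, 3p: cCCGCCTTgcatcaactgaat
On build TAIR10, from exact matches to its RefSeq copy, miR827 lies at chr3:22122811-22122831 on the minus strand, within the MIR827 transcript. The 24-nt form of miR163 lies at chr1:24884359-24884382 on the plus strand in MIR163, and the 23-nt form starts at the same base and lacks the last one. The first miR169 3p sequence matches the MIR169d and MIR169g transcripts (MIR169d at chr1:20039499-20039519, minus strand), and the second matches MIR169f alone (chr3:4805713-4805733, minus strand). miR822 lies in MIR822 (chr5:897287-897307, minus strand), the 5p strand of miR169a in MIR169a (chr3:4359182-4359202, minus strand) and the 3p strand of miR168a in MIR168a (chr4:10578737-10578757, plus strand). The 5p strand of miR168 matches MIR168a (chr4:10578652-10578672, plus strand) and MIR168b. The sequence listed as miR5368 matches no MIR gene: both its matches lie in the 23S rRNA genes of the plastid genome, the first at positions 106931 to 106948. No other listed family has the seed of miR827, miR163 or the miR169 3p strand.

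The 6 libraries held 1166166 to 3034481 miRNA reads, and values are counts per 1000000 of a library's miRNA reads (CPM), scaled with trimmed mean of M-values factors. A value therefore depends on the rest of the miRNAs. Over the 74 tested families the median log2 change was 0.06 with these factors, 0.22 with library totals alone and 0.37 when scaled to reads that match the genome. miRNAs took 5.33, 7.06 and 13.2% of the genome-matched reads in the mock libraries and 7.76, 9.28 and 11.7% in the Alternaria libraries. The ranges overlap, with mock replicate 3 highest and mock replicate 1 lowest (difference of means 1.02 percentage points, exact two-sided permutation p = 0.7, where 3 against 3 cannot go below 0.1). A miRNA table holds no protein-coding markers of leaf; of families described from other organs miR842, of roots, was listed at 0 in all 6, and miR846 and miR447 made up 0.0213 to 0.0438% of mock and 0.0301 to 0.0665% of Alternaria reads. A leaf is a mix of cells, and in bulk RNA fewer cells of a type and less RNA per cell cannot be told apart.

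Of the 86 families listed, 74 had enough reads to test; the other 12 reached at most 49.7 CPM. The table lists nothing below 15 reads in a run, so a 0 may hide 14 reads in each of 2 runs. By limma with Benjamini-Hochberg adjustment 2 were higher in Alternaria leaves (2.7% of the families tested), miR827 and miR163, and 3 were lower (4.05%), miR169, miR822 and miR5368, together 6.76%. Of these, miR5368 met the read filter through the mock libraries alone, so the direction of its call followed from how it entered the test. Without adjustment 19 (25.7%) had a p under 0.05, 7 of them higher (9.46%) and 12 lower (16.2%). The families miR384 and miR394 hold the same reads, so 1 measurement is counted under 2 names among the 12 and the 74. In 25 families (33.8%) the 3 Alternaria libraries lay wholly above or below the 3 mock libraries, 13 above (17.6%) and 12 below (16.2%). A listed 0 was taken as 0 in these counts and in those of sequences below. In miR5368, miR5651, miR838, miR8183, miR852 and miR829 the reads that a 0 can hide could close the gap, so their separation is not established. Most families moved little: 51 of the 74 had a log2 change under 1 in size. The count of calls rested on mock replicate 3, without which 7 families were higher and 3 lower: miR840, miR838, miR5651, miR3434 and miR8183 were added above, miR843 below, and miR822 no longer passed. Of those added, miR838, miR5651, miR3434 and miR8183 were listed at 0 in mock replicates 1 and 2. Without mock replicate 3 they met the read filter through the Alternaria libraries alone, so the direction of these calls followed from how they entered the test. The calls also rested on mock replicate 2, without which miR827 was the only family higher and miR169 the only one lower, and 1 family was lower without mock replicate 1, Alternaria replicate 2 or Alternaria replicate 3.

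**Figure D1:**
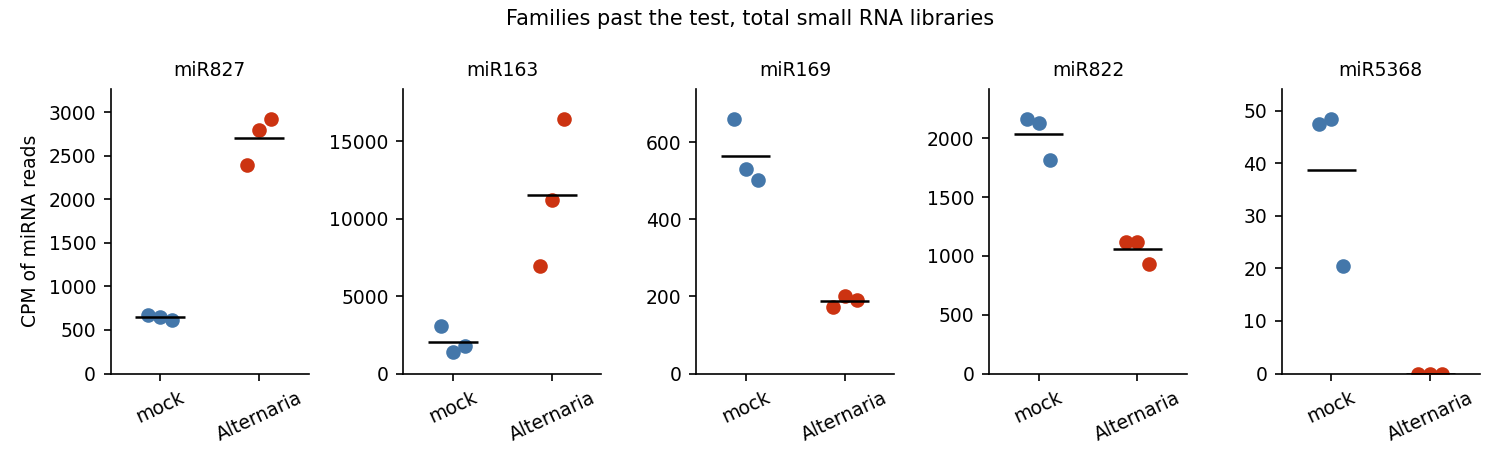
Level of the 5 families past the test in each total small RNA library, in CPM of miRNA reads on a linear axis from 0 that differs between panels. Points are the 3 libraries of a group and bars their mean. In all 5 panels the listed values of the groups do not overlap. miR5368 is listed at 0 in the 3 Alternaria libraries, where hidden reads could reach the lowest mock value.

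miR827, which phosphate starvation induces and which targets NLA, a ubiquitin ligase that removes phosphate transporters, rose in all 3 Alternaria libraries. It stood at 669, 649.8 and 620.4 CPM in the 3 mock libraries and 2401, 2797 and 2918 CPM in the 3 Alternaria libraries. The lowest Alternaria library was more than 3 times the highest mock library, and libraries of a group lay close together. The means were 646 ± 24.4 CPM in mock and 2706 ± 271 CPM in Alternaria leaves (4.19-fold; log2 change 2.06 ± 0.21, adjusted p = 0.00113 by limma, n = 3 per group). Nearly all its reads were the 21-nt sequence given above (97.4% in mock and 97.1% in Alternaria libraries), which passed on its own (log2 change 2.05 ± 0.26, adjusted p = 0.00341). The form 1 base shorter at its 3′ end was listed at 0, 15.1 and 18.6 CPM in the 3 mock libraries and 35.7, 86.7 and 73.2 CPM in the 3 Alternaria libraries and did not pass (adjusted p = 0.162). The family passed under each of the 21 alternatives tried, with log2 changes of 2.00 to 2.45.

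miR163 targets SABATH methyltransferase genes of secondary metabolism and is unusual among plant miRNAs cut by DICER-LIKE1 in being 24 nt long. It had the largest rise in CPM among the families that passed, with levels of 3039.6, 1370.1 and 1774 CPM in the 3 mock libraries and 6948, 11187 and 16412 CPM in the 3 Alternaria libraries. Every Alternaria library lay above every mock library, and both groups were spread, mock replicate 1 and Alternaria replicate 3 standing highest in their groups. The means were 2061 ± 871 CPM in mock and 11515 ± 4741 CPM in Alternaria leaves (5.59-fold; log2 change 2.48 ± 0.42, adjusted p = 0.0135 by limma, n = 3 per group). The call ended without mock replicate 2 (log2 2.22, adjusted p = 0.0559), and in a fit with the 3 untreated libraries (log2 2.42, adjusted p = 0.682), in one of which miR163 is listed at 0.

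All 8 tested of the 11 listed sequences of miR163 had positive log2 changes, and 2 of them passed the test over the 287 sequences tested, of which 3 were higher (1.05%) and 1 lower (0.348%), together 1.39%. Without adjustment 66 sequences (23%) had a p under 0.05, 30 higher (10.5%) and 36 lower (12.5%), and in 81 (28.2%) the groups did not overlap. The 24-nt form was at 2887, 1275 and 1604 CPM in the 3 mock libraries and 6428, 10504 and 15449.7 CPM in the 3 Alternaria libraries (log2 change 2.49 ± 0.41, adjusted p = 0.0144). The 23-nt form was at 114, 94.7 and 104 CPM in the 3 mock libraries and 303, 387 and 552 CPM in the 3 Alternaria libraries (log2 change 1.94 ± 0.30, adjusted p = 0.0139), with the groups apart and the mock libraries close together. The 24-nt form made up 92.5% of miR163 reads in mock and 93.9% in Alternaria libraries, and the 23-nt form 5.19% and 3.50%. Both calls ended without mock replicate 3 (adjusted p = 0.0848 for 24 nt and 0.0643 for 23 nt), and that of the 24-nt form also without Alternaria replicate 3 (0.0583). Both ended too in the fit with the untreated libraries (0.683 and 0.677).
The other 6 sequences are shorter or start later in the hairpin and reached at most 121 CPM. A form that starts 1 base later, given as 23 nt, was listed at 0, 0 and 23.1 CPM in the 3 mock libraries and 58.6, 63.7 and 106 CPM in the 3 Alternaria libraries. A 22-nt form with the common start was listed at 16.6, 0 and 32.9 CPM in the 3 mock libraries and 60.5, 102 and 121 CPM in the 3 Alternaria libraries, so both were more abundant in each Alternaria library than in any mock library and neither passed (adjusted p = 0.136 and 0.157). A mock value of 0 can hide up to 28 reads of a sequence in a library, so their fitted changes depend on the pseudocount.

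miR169 targets subunits of the transcription factor NF-YA, and its genes fall under nitrogen starvation in Arabidopsis. It stood at 659, 529.9 and 502 CPM in the 3 mock libraries and 171, 201 and 189 CPM in the 3 Alternaria libraries. The libraries of each group were close together, and the highest Alternaria library lay far below the lowest mock library. The means were 564 ± 83.4 CPM in mock and 187 ± 14.8 CPM in Alternaria leaves (3.01-fold lower; log2 change -1.58 ± 0.18, adjusted p = 0.00146 by limma, n = 3 per group). The call held without any 1 library. It ended when scaled to genome-matched reads (log2 -1.12, adjusted p = 0.610) and when each value of 0 was set to the 14 reads a run can hide (log2 -0.87, adjusted p = 0.118).

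The reads of miR169 were not of the annotated guide strand: in both groups the 3p strand made up nearly all of them (99.5% of the reads with an assigned arm in mock and 95.4% in Alternaria libraries). The 3p sequence of MIR169d and MIR169g was at 307, 234 and 223 CPM in the 3 mock libraries and 42.0, 40.2 and 35.8 CPM in the 3 Alternaria libraries. It was the one sequence past the test that was lower (log2 change -2.65 ± 0.27, adjusted p = 0.00142), and it passed under all 21 alternatives. The 3p sequence of MIR169f, which differs from it in the last base, was at 199.6, 170.3 and 167 CPM in the 3 mock libraries and 129, 57.8 and 136 CPM in the 3 Alternaria libraries. Its groups did not overlap either, with Alternaria replicate 2 lowest, but it did not pass (log2 change -0.82 ± 0.36, adjusted p = 0.207). The MIR169d and MIR169g sequence went from 45.0% to 20.3% of the family's pooled reads, while the share of the MIR169f sequence went from 32.2% to 58.9%; the difference between the changes of the 2 sequences was not tested. The 20-nt form that both share without the last base was listed at 105, 83.6 and 43.7 CPM in the 3 mock libraries and 0, 11.3 and 4.04 CPM in the 3 Alternaria libraries (adjusted p = 0.112). The 5p strand of miR169a, the annotated guide, was listed at 0, 0 and 6.84 CPM in the 3 mock libraries and 0, 17.2 and 9.69 CPM in the 3 Alternaria libraries, and at 0 in 3 of the 6.

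**Figure D2:**
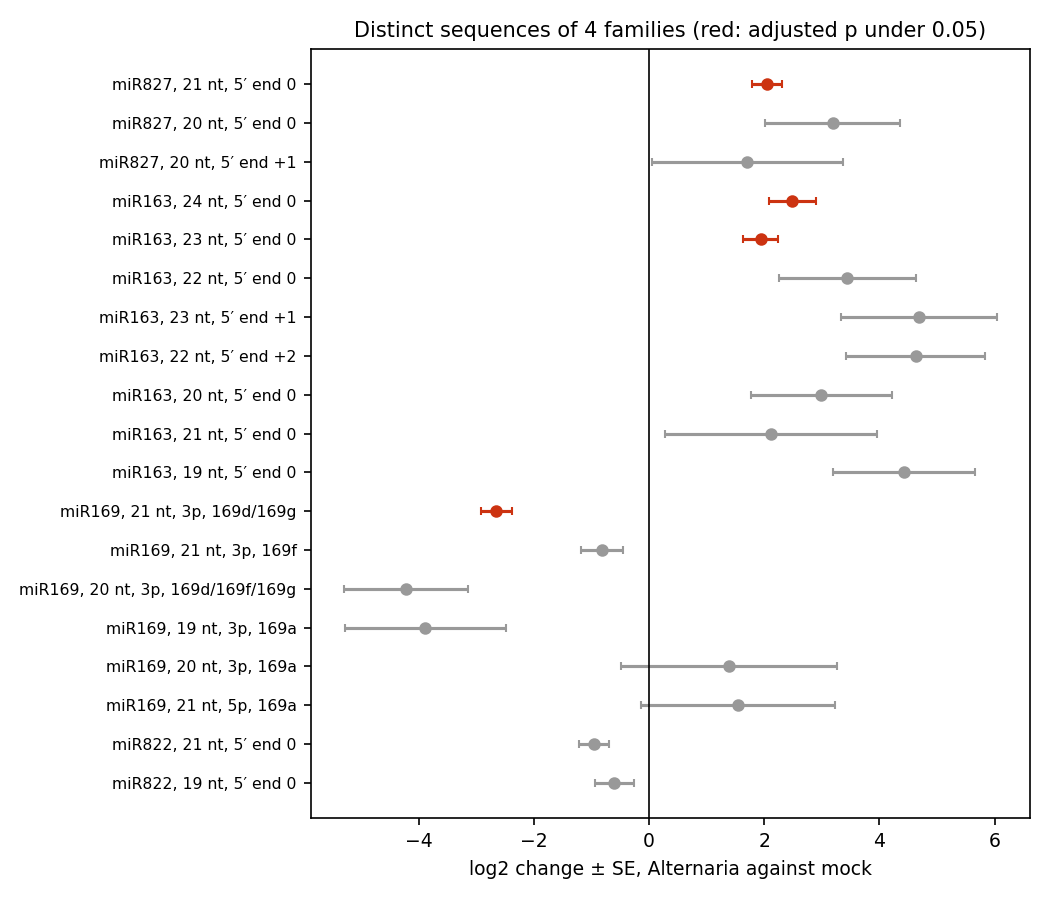
Log2 change with its standard error of every tested sequence of miR827, miR163, miR169 and miR822, labelled by length and by hairpin arm and gene or by the start relative to the family's main sequence. Red points are the 4 sequences past the test; all miR163 points lie right of 0, while miR169 has points on both sides.

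miR822, a young miRNA of the Arabidopsis lineage that targets genes of the DC1 domain family, was at 2161, 2129 and 1816 CPM in the 3 mock libraries and 1115, 1119 and 932 CPM in the 3 Alternaria libraries. The groups did not overlap and each was tight. The means were 2035 ± 190.5 CPM in mock and 1056 ± 107 CPM in Alternaria leaves (1.93-fold lower; log2 change -0.95 ± 0.22, adjusted p = 0.0411 by limma, n = 3 per group). Its main sequence, with 96.8% of its mock reads, had much the same value and did not pass over the larger number of sequences (log2 change -0.96 ± 0.26, adjusted p = 0.123), nor did the 19-nt form without the last bases (log2 -0.60, adjusted p = 0.323). This was the least stable of the calls: it ended without each of the 6 libraries in turn (mock replicates 1, 2 and 3 and Alternaria replicates 1, 2 and 3, log2 -0.99 to -0.86, adjusted p 0.0644 to 0.190). It also ended with library totals alone (log2 -0.78, adjusted p = 0.0868), with median-of-ratios factors (log2 -0.79, adjusted p = 0.0739) and when scaled to genome-matched reads (log2 -0.53, adjusted p = 0.751). The same held with 0 set to 14 reads per run (adjusted p = 0.217), run 2 alone (0.0803) and a replicate block (0.0759).

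The family listed as miR5368 is a piece of plastid 23S rRNA and stood at 47.6, 48.4 and 20.5 CPM in the 3 mock libraries and 0, 0 and 0 CPM in the 3 Alternaria libraries. The mock libraries were low and the Alternaria libraries were all at the floor of the table. The family thus entered the test through the mock libraries alone, and with a filter at 50 reads it was not tested. Counted against the 28 reads that a value of 0 can hide for each of its 2 sequences in a library, it was at least 1.53-fold lower; its adjusted p was 0.0225 by limma, and its fitted change depends on the pseudocount. The call ended without mock replicate 1 (adjusted p = 0.171), mock replicate 2 (0.105), or Alternaria replicate 2 or 3 (0.0727 each), and when 0 was set to 14 reads per run (0.249). It also ended when scaled to genome-matched reads (log2 -1.89, adjusted p = 0.252), with run 2 alone (adjusted p = 0.0716) and with a replicate block (0.0558). Of the other plastid fragments, miR6173, a piece of 16S rRNA, was at 243, 105 and 53.1 CPM in the 3 mock libraries and 75.1, 90.4 and 65.1 CPM in the 3 Alternaria libraries (log2 -0.53, adjusted p = 0.555), with the groups overlapping. miR4995 was listed at 49.7 CPM in mock replicate 1 and at 0 in the other 5, so it was not tested. Together the 3 plastid fragments took 0.00745 to 0.0333% of the listed reads in mock and 0.00699 to 0.00934% in Alternaria libraries.
The families grouped as tRNA-like or other non-MIR (miR8175, miR8155, miR5139 and miR6478) took 0.383 to 1.08% and 0.196 to 0.644%. All 64 matches of the main miR6478 sequence lie in tRNA genes. The main miR8175 sequence has 2 matches, 1 of them in the annotated MIR8175 transcript. The main sequence of miR8155 and miR5139 matches no annotated MIR transcript, tRNA or rRNA. None of the 4 passed. miR8175 was at 7935, 11148 and 2902 CPM in the 3 mock libraries and 1145, 5052 and 727 CPM in the 3 Alternaria libraries (log2 -1.98, adjusted p = 0.183), and Alternaria replicate 2 lay among the mock libraries. miR8155, whose main sequence also counts as miR5139, had a log2 of -0.84, and miR5139 and miR6478 of -0.07 and -0.13, both positive with library totals alone, median-of-ratios factors and genome-matched scaling. The part that the plastid fragments and these families had in any other value was not tested.

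Beyond the calls, 3 families whose groups did not overlap had a log2 change of at least 1 in size with a mean of at least 50 CPM in a group. miR840 was at 61.3, 33.2 and 105 CPM in the 3 mock libraries and 149.6, 148 and 182 CPM in the 3 Alternaria libraries (log2 change 1.39 ± 0.44, adjusted p = 0.151). Its levels in mock replicate 3 came nearest to the Alternaria group, and without that library it passed (log2 1.91, adjusted p = 0.0275). miR843 was at 276, 194 and 53.1 CPM in the 3 mock libraries and 43.9, 33 and 51.4 CPM in the 3 Alternaria libraries (log2 change -1.73 ± 0.63, adjusted p = 0.183). Mock replicate 3 stood next to the Alternaria libraries and far below the other mock libraries, and without it miR843 passed (log2 -2.31, adjusted p = 0.0161). miR852 was at 0, 15.1 and 27 CPM in the 3 mock libraries and 37.6, 52.0 and 64.8 CPM in the 3 Alternaria libraries, which did not pass (adjusted p = 0.210), and its fitted change depends on the 0 in mock replicate 1. Part of the low families did much the same: miR5651, miR838 and miR8183 were listed at 0 in mock replicates 1 and 2, low in mock replicate 3 and present in all Alternaria libraries, with the highest value 59.5 CPM. A 0 can hide up to 28 reads of a sequence in a library. Reads hidden in mock replicate 1 or 2 could thus reach the lowest Alternaria level of miR852, miR5651, miR838 and miR8183. Mock replicate 3 had the most miRNA reads of the 6, and the part of depth in these listings was not tested.

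**Figure D3:**
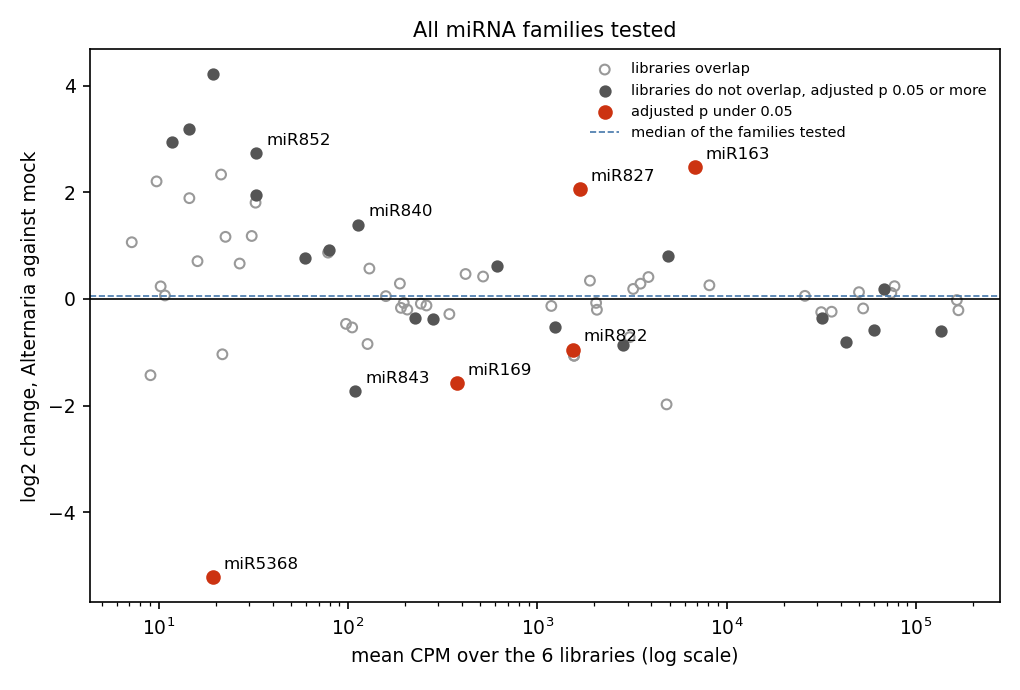
Log2 change of each of the 74 tested families against its mean CPM over the 6 libraries (log axis). Red points passed the test, filled grey points are the other families whose groups do not overlap, and open points are families whose groups overlap; the largest fitted changes among families under about 50 CPM lie mostly outside the test's threshold.

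The 10 most abundant families, miR166, miR168, miR390, miR159, miR158, miR156, miR396, miR403, miR157 and miR164, took 82.9 to 86.4% of the miRNA reads of a library, and none passed the test. miR164, which targets NAC transcription factors of organ boundaries, root branching and senescence, was at 43548, 61745 and 57215 CPM in the 3 mock libraries and 39157, 33385 and 22227 CPM in the 3 Alternaria libraries (log2 change -0.80 ± 0.26, adjusted p = 0.151). All 3 Alternaria libraries lay below the mock libraries, replicate 3 lowest. miR390, which with AGO7 starts the tasiRNAs that restrain auxin response factors, was at 170058, 182956 and 133334 CPM in the 3 mock libraries and 131275, 119963 and 75577 CPM in the 3 Alternaria libraries (log2 change -0.60 ± 0.25, adjusted p = 0.183), again with no overlap. miR396, which targets growth-regulating factors, was at 69944, 78528 and 64714 CPM in the 3 mock libraries and 52154, 60081 and 33338 CPM in the 3 Alternaria libraries (log2 change -0.59 ± 0.24, adjusted p = 0.183), also with the Alternaria libraries below the mock libraries. The phase-change miRNA miR156, which targets SPL factors, was at 69888, 54908 and 66398 CPM in the 3 mock libraries and 74806, 70361 and 72249 CPM in the 3 Alternaria libraries (log2 change 0.19 ± 0.16, adjusted p = 0.477), a small difference without overlap. Its relative miR157 had a log2 of 0.13; both families count the same main sequence, so their values are not independent.
In miR157 and the other 5 abundant families the groups overlapped. miR159, which targets GAMYB-like factors, had a log2 of 0.24 (adjusted p = 0.492) and miR158 of 0.11 (0.712). miR166, which targets the HD-ZIP III factors of leaf polarity, had -0.21 (0.594), and its values ranged from 134794 to 252794 CPM within the mock group alone. Its relative miR165, with reads shared between both families, had -0.25 (0.594). miR166 and miR165 were positive when scaled to genome-matched reads.

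**Figure D4:**
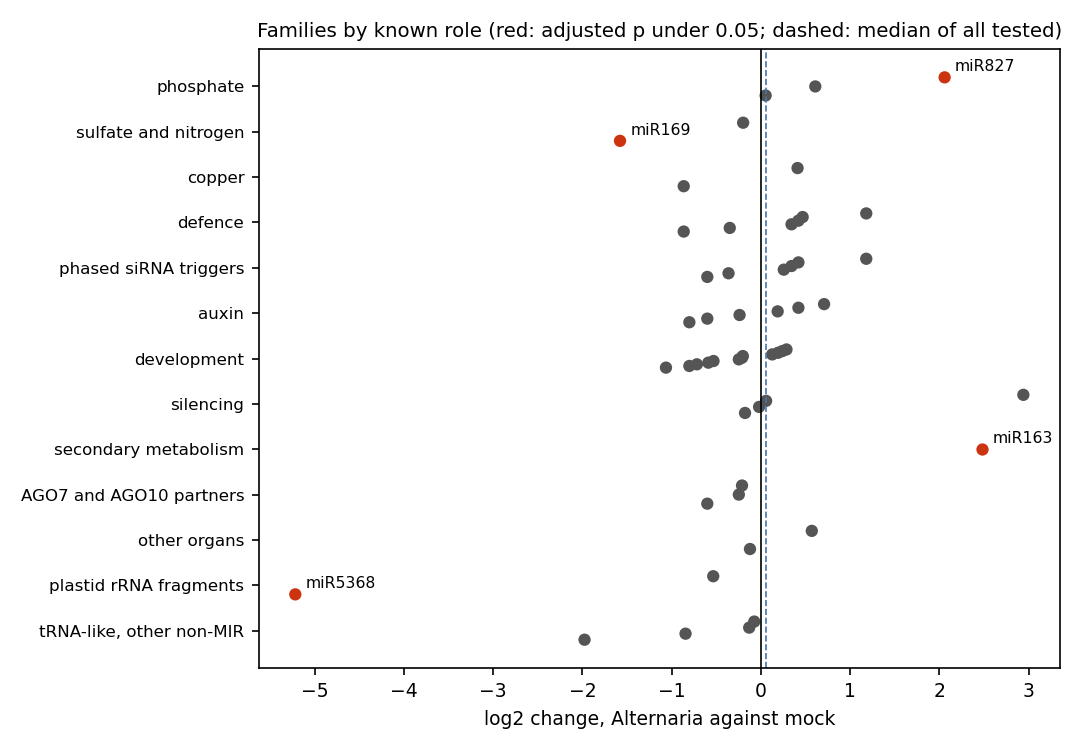
Log2 change of each tested family, grouped by known role; a family can stand in more than 1 role. Red points are the 4 listed families past the test, the dashed line is the median of all 74 families, and the points of the development, auxin and defence rows lie on both sides of it.

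By role, the phosphate families had 1 of 3 tested members past the test, miR827, with a median log2 of 0.61 beside 0.06 over all families. miR399, which targets the phosphate-transport repressor PHO2, was at 386, 622 and 456 CPM in the 3 mock libraries and 662, 837 and 702 CPM in the 3 Alternaria libraries (log2 change 0.61 ± 0.23, adjusted p = 0.183). Its groups did not overlap but lay close. miR2111, another phosphate miRNA, was at 145, 176 and 143 CPM in the 3 mock libraries and 139, 201 and 146 CPM in the 3 Alternaria libraries and had a log2 of 0.05 (adjusted p = 0.881). The summed share of the phosphate families ran from 0.117 to 0.123% of reads in mock and 0.298 to 0.466% in Alternaria libraries. Of the sulfate and nitrogen list miR169 fell, and miR395, which targets ATP sulfurylases, had a log2 of -0.20 (adjusted p = 0.538; positive when scaled to genome-matched reads).

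Neither of the 2 copper families tested passed, and their family values had opposite signs. miR398, which targets copper superoxide dismutases, was at 2966, 3850.5 and 4076 CPM in the 3 mock libraries and 1865, 2826 and 1462 CPM in the 3 Alternaria libraries (log2 change -0.86 ± 0.31, adjusted p = 0.183). The Alternaria libraries lay below the mock libraries. miR408, which targets laccases and plantacyanin, was at 2423, 3847 and 3721 CPM in the 3 mock libraries and 5030.1, 4738 and 3424 CPM in the 3 Alternaria libraries (log2 0.41, adjusted p = 0.417), with overlap. Most miR408 reads were a 5p sequence (67.0% in mock and 75.3% in Alternaria libraries, log2 0.59, adjusted p = 0.251 by limma). The 3p guide strand of miR408 hardly differed, at a mean of 771 CPM in mock and 769 CPM in Alternaria libraries (log2 0.02, adjusted p = 0.977). miR397, another laccase regulator, was listed at 0 in all 6.

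None of the 6 tested defence families passed (4 positive and 2 negative, median log2 0.38). miR393, which targets the auxin receptors of the TIR1 and AFB group and limits bacterial growth, was at 419, 315 and 537 CPM in the 3 mock libraries and 308, 922 and 602 CPM in the 3 Alternaria libraries (log2 0.42, adjusted p = 0.538). Alternaria replicate 1 lay below all mock libraries and replicates 2 and 3 above them. Most miR393 reads were the 3p sequence of MIR393b (74.1% in mock and 83.4% in Alternaria libraries, log2 0.56, adjusted p = 0.428 by limma). The 5p strand, which pairs with the receptor messages, had the other sign, at a mean of 88.5 CPM in mock and 67.6 CPM in Alternaria libraries (log2 -0.78, adjusted p = 0.620). miR863, which targets immune kinase genes and SERRATE, had a log2 of 0.47 (adjusted p = 0.417), and miR825 of -0.35 (0.210; without overlap, and positive when scaled to genome-matched reads). miR398 also stands in this list, as do miR472, which targets immune receptors of the CC-NBS-LRR class (log2 0.34, adjusted p = 0.569), and miR400, listed at 0 in mock replicate 2 (log2 1.18, adjusted p = 0.594).
The 6 tested triggers of phased small interfering RNAs had none past the test (median 0.30, 4 positive and 2 negative). miR161, which targets PPR genes, was at 38430.5, 35131 and 34023 CPM in the 3 mock libraries and 28430.2, 27822 and 27325 CPM in the 3 Alternaria libraries (log2 -0.36, adjusted p = 0.183). The 2 groups did not overlap and each lay within a narrow range, though with genome-matched scaling the log2 was 0.05. miR173, which starts the TAS1 and TAS2 tasiRNAs, had a log2 of 0.26 (adjusted p = 0.568) and miR390 is given above. As a summed share of reads the trigger families ran from 18.1 to 21.3% in mock and 14.1 to 16.5% in Alternaria libraries, with miR390 the largest member.

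Neither the auxin list (6 tested, median -0.03, 3 positive) nor the development list (12 tested, median -0.23, 4 positive) had a member past the test. With library totals alone these medians were 0.14 and -0.06. miR167, which targets ARF6 and ARF8, had a log2 of -0.24 (adjusted p = 0.417; positive when scaled to genome-matched reads). miR160, which targets other auxin response factors, had 0.19 (0.685) and miR847, which targets IAA28, 0.71 (0.594). In the development list miR172, which targets AP2-like factors, had 0.29 (0.531), though its 3p guide strand had -0.08 (0.902). miR170 and miR171, related regulators of GRAS factors, had -0.53 (0.245) and -0.20 (0.594). Both count the same 5p main sequence (98.9% of miR170 and 64.0% of miR171 mock reads), so their values are not independent. The 3p strands, which pair with the GRAS messages, had 0.81 for MIR171a (adjusted p = 0.358 by limma), -0.05 for MIR171b and MIR171c (0.941) and 0.58 for MIR170 (0.878). miR394, which targets the F-box gene LCR, was at 1737, 2170.0 and 2199 CPM in the 3 mock libraries and 504, 1743 and 1030.2 CPM in the 3 Alternaria libraries (log2 change -1.06 ± 0.44, adjusted p = 0.183). Alternaria replicates 1 and 3 lay well below the mock group and replicate 2 reached into it; the family listed as miR384 holds the same reads. miR319, which targets TCP factors of leaf growth, was at 3369, 4236 and 3673 CPM in the 3 mock libraries and 1728, 3454 and 1976 CPM in the 3 Alternaria libraries (log2 -0.72, adjusted p = 0.194), with the same library standing inside the mock range.
In the silencing list none of the 4 passed. miR162, which targets DCL1, and miR403, which targets AGO2, had log2 changes of 0.06 (adjusted p = 0.888) and -0.18 (0.538; positive when scaled to genome-matched reads). miR838, which lies in an intron of DCL1, was listed at 0 in mock replicates 1 and 2 and at 14.7 CPM in replicate 3. In the Alternaria libraries it was at 24.2, 16.3 and 15.3 CPM (adjusted p = 0.210). Without mock replicate 3 its adjusted p was 0.0215 by limma, but it then met the read filter through the Alternaria libraries alone. miR163 was the 1 tested member of the secondary metabolism list. The 3 partners of AGO7 and AGO10 (miR390, miR165 and miR166) had a median of -0.25. Of the other-organ families, miR846, which targets jacalin lectin genes, had a log2 of 0.57 (adjusted p = 0.416) and miR447 of -0.12 (0.762; positive with library totals alone, median-of-ratios factors and genome-matched scaling).

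The strands of a hairpin were also compared. miR168, which targets AGO1 itself, did not pass as a family (log2 -0.02, adjusted p = 0.957, positive with library totals alone, median-of-ratios factors and genome-matched scaling), and its 5p guide strand holds most of its reads. The 3p strand took 2.75, 4.35 and 2.92% of its reads in the mock libraries and 8.47, 5.54 and 7.38% in the Alternaria libraries, so every Alternaria library lay above every mock library. The 3p sequence of miR168a was at 3703, 7616 and 4437 CPM in the 3 mock libraries and 18569, 8508 and 7725 CPM in the 3 Alternaria libraries (log2 change 1.10 ± 0.40, adjusted p = 0.162). That of miR168b was at 41.8, 59.4 and 52.5 CPM in the 3 mock libraries and 157, 112 and 209 CPM in the 3 Alternaria libraries (log2 change 1.59 ± 0.32, adjusted p = 0.0528). Neither passed. That of miR168b passed in 6 of 21 alternatives, median-of-ratios factors, a pseudocount of 5, a filter at 50 reads, 0 set to 14 reads per run, run 2 alone and without Alternaria replicate 2, and its adjusted p over the 21 ran from 0.000120 to 0.612. These strands were chosen after their values were seen.
Both strands of miR391, a relative of miR390, were higher in each Alternaria library than in any mock library. The 5p strand was at 2889.7, 1315 and 2233 CPM in the 3 mock libraries and 4383, 4054 and 3267 CPM in the 3 Alternaria libraries (log2 0.92, adjusted p = 0.162) and the 3p strand at 664, 474 and 485 CPM in the 3 mock libraries and 1010.0, 1408 and 1155 CPM in the 3 Alternaria libraries (log2 1.14, adjusted p = 0.112); neither passed. The strands of miR398 come from 3 hairpins. The 3p sequence of MIR398b and MIR398c, which guides cleavage of the superoxide dismutase messages, was at 1781, 2492 and 2410.2 CPM in the 3 mock libraries and 1013, 1517 and 593 CPM in the 3 Alternaria libraries (log2 -1.18, adjusted p = 0.145), all Alternaria libraries below mock. The 5p sequence of the same MIR398b and MIR398c hairpins was at 278, 254 and 269.8 CPM in the 3 mock libraries and 119.7, 292 and 186 CPM in the 3 Alternaria libraries (log2 -0.51, adjusted p = 0.442), with overlap. The 5p sequence of another hairpin, MIR398a, was at 243, 119.9 and 235 CPM in the 3 mock libraries and 267, 283 and 375 CPM in the 3 Alternaria libraries (log2 0.68, adjusted p = 0.281), all Alternaria libraries above mock. None of the 3 passed, and these strands too were chosen after their values were seen.

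By length, sequences of 21 nt made up most listed reads, 85.6 ± 2.64% in mock and 83.7 ± 3.28% in Alternaria libraries (SD, n = 3), and those of 20 nt 10.6 ± 1.92% and 12.2 ± 2.43% (exact permutation p = 0.5 for each, 0.571 adjusted over 8 shares). Sequences of 24 nt took 0.282, 0.110 and 0.162% of the listed miRNA reads in the 3 mock libraries and 0.598, 1.09 and 1.91% in the 3 Alternaria libraries. The groups did not overlap, and the p is the smallest that 3 against 3 allows (exact two-sided permutation p = 0.1, adjusted 0.267). In each library 98.7% or more of the 24-nt reads were the one miR163 sequence. Sequences of 22 nt, the length known to trigger phased small interfering RNAs, took 2.38 ± 0.857% and 2.13 ± 0.0805% (exact permutation p = 0.7). A form of miR167 made up 34.6 to 62.0% of them, and without it the mean share was 1.02% in mock and 1.31% in Alternaria libraries, the other direction.
By first base, on which the choice of ARGONAUTE partner is known to depend, U, written T in the files, stood first in 78.8 ± 2.38% of mock and 82.6 ± 2.62% of Alternaria reads (exact permutation p = 0.3, adjusted 0.571). A stood first in 17.4, 16.6 and 14.3% of the listed miRNA reads in the 3 mock libraries and 13, 13.5 and 10.3% in the 3 Alternaria libraries, without overlap (exact permutation p = 0.1, adjusted 0.267). Of these reads 88.5 to 93.7% were the main sequence of miR390, and without it A stood first in 1.41% of mock and 1.35% of Alternaria reads on average. C stood first in 0.787, 1.03 and 0.760% of the listed miRNA reads in the 3 mock libraries and 2.18, 1.25 and 1.32% in the 3 Alternaria libraries, again without overlap (exact permutation p = 0.1, adjusted 0.267). The 3p strand of miR168a made up 46.0 to 79.4% of that share, which without it was 0.373% in mock and 0.400% in Alternaria libraries. G stood first in 4.25 ± 1.07% and 3.50 ± 0.732% (exact permutation p = 0.5, n = 3 per group).

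**Figure D5:**
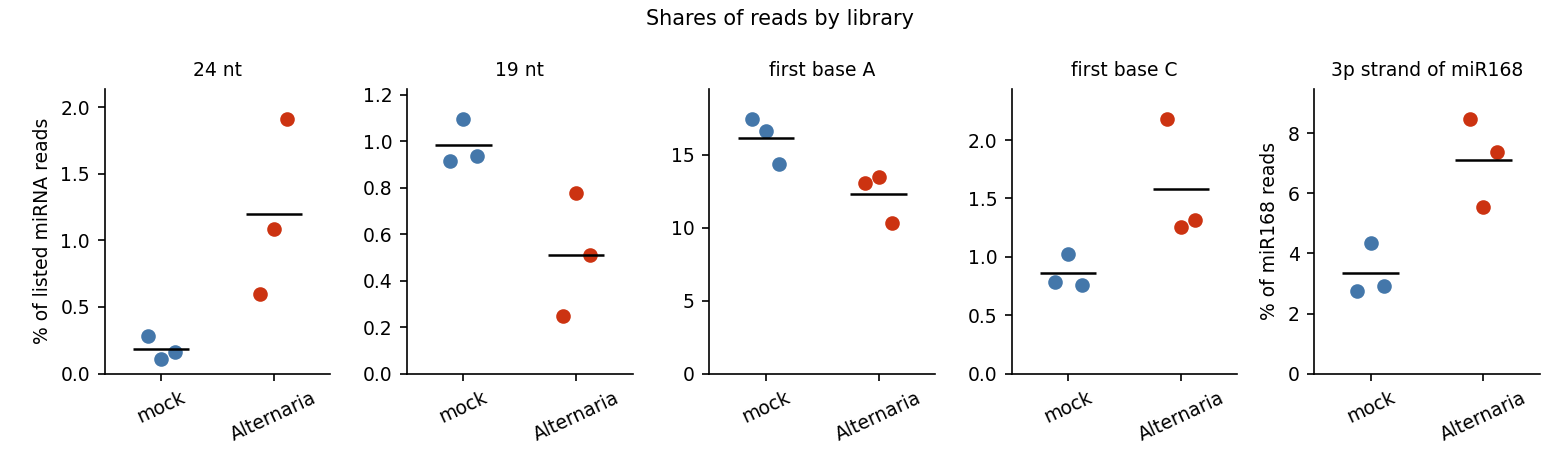
Shares of listed miRNA reads that are 24 nt or 19 nt long or begin with A or C, and the share of miR168 reads from its 3p strand, in percent by library (points) with the group mean (bar). The groups do not overlap in any of the 5 panels, and the largest relative difference is that of 24 nt, nearly all of it miR163.

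Of 58 tested short forms of 18 and 19 nt, 13 had all Alternaria libraries below mock and 3 had all above, beside 42 and 39 of the 287 sequences (14.6% and 13.6%). The 19-nt forms took 0.917, 1.09 and 0.935% of the listed miRNA reads in the 3 mock libraries and 0.247, 0.779 and 0.509% in the 3 Alternaria libraries. All 3 Alternaria libraries lay below the mock libraries, and this share was chosen after its values were seen. The most abundant of them is miR158 without its last base, which was at 4829.6, 4181 and 5696 CPM in the 3 mock libraries and 689, 3893 and 2291 CPM in the 3 Alternaria libraries (log2 -1.41, adjusted p = 0.184). The 19-nt form of miR166 was at 213, 363 and 236 CPM in the 3 mock libraries and 36.3, 163 and 64.6 CPM in the 3 Alternaria libraries (log2 -1.84, adjusted p = 0.126) and that of miR403 at 246, 229 and 297 CPM in the 3 mock libraries and 34.4, 193 and 76.7 CPM in the 3 Alternaria libraries (log2 -1.66, adjusted p = 0.145). None of the 3 passed. Of 27 tested forms of 22 nt, 21 had a log2 change above 0, with a median of 0.39, and 5 lay without overlap above and 1 below. Over all 287 sequences 148 were above 0, with a median of 0.05. Sequences of 1 family share their hairpin, so these counts are not of independent values.

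AGO1-bound small RNA was measured in 3 libraries each from mock and Alternaria leaves. miR827 was at 125 ± 25.8 CPM in mock and 260.4 ± 69.0 CPM in Alternaria AGO1 libraries (SD, n = 3), miR163 at 206 ± 62.6 and 551 ± 36.3 CPM, and miR822 at 723 ± 397 and 385 ± 50.2 CPM. Each thus had the same sign of difference as in total RNA. By limma over the AGO1 libraries alone miR163 passed (adjusted p = 0.0119), while miR827 (0.0576) and miR822 (0.304) did not. The miR169 family was low there, at 17.7 ± 2.34 CPM in mock and 11.1 ± 3.40 CPM in Alternaria AGO1 libraries. Its sign was also that of total RNA (log2 -0.67, adjusted p = 0.199 by limma over the AGO1 libraries alone). The 3p sequence of MIR169d and MIR169g was listed at 0 in all 6 AGO1 libraries. A test of the difference between the Alternaria effect in AGO1 and in total libraries had 1 of 90 families past the threshold by limma (1.11%) and 9 with an unadjusted p under 0.05. The 1 family was miR5368, which was listed at 0 in all AGO1 libraries, so its call rests on the total libraries alone. For miR827 the difference was -1.07 ± 0.40 on the log2 scale (adjusted p = 0.420), for miR163 -1.07 ± 0.51 (0.459) and for miR822 0.13 ± 0.44 (0.898). For the miR169 family it was 0.84 ± 0.38 (0.459). Without mock total replicate 3, 6 families passed with a lower effect in AGO1 libraries. Libraries of the 2 kinds were prepared by different protocols, so kit and AGO1 binding cannot be told apart in levels.

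The authors' deposited table of this comparison gives the same directions for the 5 families that passed here. It is of the same mock and Alternaria total libraries, so it is not an independent check. In the authors' deposited table miR827 has a log2 of 2.23 (adjusted p = 9.68e-08), miR163 of 2.65 (0.0214), miR169 of -1.43 (0.0614) and miR822 of -0.79 (0.331). For miR5368 the authors' deposited table has a mean of 0 in Alternaria leaves (adjusted p = 0.00588). So miR827, miR163 and miR5368 have an adjusted p under 0.05 in the authors' deposited table, and miR169 and miR822 do not.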

How the data were processed

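Small RNA libraries of Arabidopsis rosette leaves were read from the authors' miRNA profile table, in which, per the file headers, reads matched build TAIR10 without mismatch and the variants and organisms of a miRNA were joined into families. FastQC and cutadapt are among the tools the submitters' processing notes name. The unit of the table was recorded as other than plain counts, because its deposited whole read numbers stand among family lines; no value above 0 is under 15 per run. A further 36 per-sample columns were not used. The authors also deposited a table of this comparison, a DESeq result by its name (the submitters' processing notes name DESeq 1.2 and DESeq2), with group means as a signal, their ratio (fold change), a log2 ratio and p-values.

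The 2 runs of a library were summed. Families, and distinct sequences counted once, were scaled to CPM with trimmed mean of M-values factors of 0.851 to 1.24 (trims 0.3 and 0.05), and log2(CPM + 1) values were tested with limma 3.58.1 (R 4.3.3), with trend and robust moderation and Benjamini-Hochberg adjustment at 0.05. Tested features had 10 reads at the median depth in at least 3 libraries and 15 reads in all. Errors are SD for levels and standard errors for log2 changes, with n = 3 per group. Depth was 1166166 to 3034481 miRNA reads per library; limits on a 0 cover counting only. The effect in AGO1 libraries was compared through an interaction term over 12 libraries, and shares by exact two-sided permutation over libraries. Sequences were matched exactly to the RefSeq copy of the assembly, where 461 of 476 had the number of matches the table lists. Methods were tested on simulated libraries with the same dispersion for every family and no effects of single libraries. That setting does not bear on calls that rest on 1 library. Python 3.11.15 with pandas 2.3.3 was used for the rest.

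The families named are those past the test, the 10 most abundant, those without overlap and with a log2 change of at least 1 and 50 CPM, up to 4 members of each role list by smallest p, and relatives of these. Further members of the role lists (miR472, miR400, miR160, miR847, miR172, miR170 and miR171) and the sequences and families so marked in the text were added after their values were seen. The members, lists and tests were chosen with earlier results of these data known. Other scalings, pseudocounts of 0.5 and 5, other filters, each run alone, limma-voom, a replicate block, each library left out and the addition of untreated libraries were tried; the fit without untreated replicate 3 was added after seeing the data.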

Additional observations from a re-analysis of the deposited data

Results flagged for a closer look

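miR5368, the listed plastid rRNA fragment, was the 1 family past the threshold in the test of the difference between AGO1-bound and total libraries. The fitted difference in Alternaria effect, AGO1 minus total, was 4.69 on the log2 scale (adjusted p = 0.000110 by limma with Benjamini-Hochberg adjustment over 90 families). All 6 AGO1 libraries are listed at 0, so the difference is that of the total libraries alone. Their mock levels were 47.6, 48.4 and 20.5 CPM, and the size depends on the pseudocount. The constant 0 values also lower the spread in that fit. Its standard error was 0.47, beside 1.03 in the total libraries alone (adjusted p = 0.0225 by limma). The smaller p therefore does not measure a difference between the 2 kinds of library. The difference did not pass when scaled to genome-matched reads or with each 0 set to 14 reads per run.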

How the results depend on the processing

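Under the alternatives tried, 1223 of 1336 recomputed values kept their direction and side of the threshold, and none of the values that passed changed direction. Of the calls, miR827 and the 3p sequence of MIR169d and MIR169g passed under all 21. Families higher numbered 1 with all 9 total libraries and 1 to 7 without 1 library, and families lower numbered 0 when scaled to genome-matched reads or with 0 set to 14 reads per run, 1 with run 2 alone and 1 to 3 without 1 library. Sequences higher numbered 5 with median-of-ratios factors, 6 with genome-matched scaling, 5 with a pseudocount of 5, 24 with 0 set to 14 reads and 1 with all 9 libraries. Sequences lower numbered 3 with genome-matched scaling, 3 with a pseudocount of 5, 11 with 0 set to 14 reads, 2 with moderation not robust, 2 with all 9 libraries, 4 without untreated replicate 3 and 1 to 4 without 1 library. The difference between AGO1 and total effects had 0 families higher with genome-matched scaling or 0 set to 14 reads, and 1 lower with run 1 alone, 2 with run 2 alone and 0 to 6 without 1 library. The causes were not tested.

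Same-numbered mock and Alternaria libraries had deviations from their group means that correlated at -0.24, -0.02 and 0.58. Not every library correlated best with its own number, but 3 such values cannot settle whether the numbers pair the libraries. The main test took them as unpaired. With a replicate block 2 families were higher and 2 lower (miR169 and miR8175), and 4 sequences were lower; for the shares, 3 pairs cannot give a p under 0.25.

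Among families that did not pass, the log2 change took the other sign as follows: with all 9 libraries, miR2111 -0.0047; with 0 set to 14 reads, miR166 0.13, miR168 0.32, miR403 0.16, miR395 0.081, miR167 0.10, miR165 0.089, miR447 0.10, miR5139 0.21, miR6478 0.21; with library totals, miR168 0.15, miR447 0.043, miR5139 0.091, miR6478 0.035; with median-of-ratios factors, miR168 0.14, miR447 0.040, miR5139 0.087, miR6478 0.031; with run 1, miR168 0.085, miR447 0.24; with run 2, miR168 0.12, miR5139 0.20, miR6478 0.025; with genome-matched scaling, miR166 0.21, miR168 0.40, miR403 0.24, miR395 0.20, miR825 0.062, miR161 0.054, miR167 0.18, miR165 0.17, miR447 0.28, miR5139 0.31, miR6478 0.28. Without 1 library in turn, log2 ranges that crossed 0 were miR158 -0.070 to 0.38, miR162 -0.21 to 0.29, miR165 -0.47 to 0.074, miR166 -0.37 to 0.054, miR168 -0.28 to 0.24, miR173 -0.0053 to 0.58, miR2111 -0.0018 to 0.16, miR447 -0.40 to 0.10, miR5139 -0.37 to 0.17, miR6173 -0.94 to 0.029, miR6478 -0.64 to 0.28. Depth limits families under about 50 CPM, of which 16 tested families had a listed 0.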

Other observations

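In 10 of 29 families with a 3p share, miR168 and miR398 among them, that share did not overlap between groups; the families below were chosen after their values were seen and the shares were not tested. In miR399 the annotated 3p guide strand took 75.5, 52.8 and 74.4% of the reads in the mock libraries and 79.9, 80.0 and 88.8% in the Alternaria libraries, mock replicate 2 being lowest. In miR408 the 3p guide strand took 24.4, 30.7 and 26.3% and 18, 22.7 and 19.1% in the same order, so in this copper family, as in miR398, the share of the 3p strand was lower in each Alternaria library. In miR171 it took 29.9, 14.1 and 29% and 30.3, 60.7 and 34.8%, a spread within each group that is wide beside the gap between them. In miR166, with its 3p guide strand, the shares were 92.5, 92.7 and 90.4% and 94.5, 94.0 and 94.7%, and in miR162 they were 93.6, 93.3 and 92.9% and 95.7, 94.5 and 94.8%. In miR158, miR165 and miR390 the mean 3p share was higher in Alternaria libraries by 0.0263, 0.276 and 0.129 percentage points.

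Of the families of low abundance, 3 more had all Alternaria libraries above all mock libraries without passing the test. miR866 was at 65.6, 36.3 and 64.2 CPM in the 3 mock libraries and 107, 121 and 82.6 CPM in the 3 Alternaria libraries (log2 0.92, adjusted p = 0.183 by limma). miR850 was at 35.3, 45.3 and 48.2 CPM in the 3 mock libraries and 100.0, 62.3 and 62.7 CPM in the 3 Alternaria libraries (log2 0.77, adjusted p = 0.287 by limma). miR829 was at 35.3, 0 and 34.9 CPM in the 3 mock libraries and 35.7, 39.8 and 49.8 CPM in the 3 Alternaria libraries (adjusted p = 0.417 by limma), and mock replicates 1 and 3 lay just below the Alternaria libraries. Reads hidden under the 0 of miR829 in mock replicate 2 could reach its Alternaria levels. All 3 were named after their values were seen.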
